A study of Arabidopsis thaliana with 4 samples.

Results

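The TC tiles of plates 0 to 13 are a block of array probes on which acetylation of lysine 56 of histone H3 (H3K56ac) was measured by chromatin immunoprecipitation and array hybridisation (ChIP-chip). They were chosen by their identifiers alone: the series letters TC, a plate number of 13 or lower, a row letter from A to H, a column number, and a value in every column of the deposited table. All 1282 tiles listed under this rule had values, out of 21707 measured tiles (5.91%). They fill 13 plates of 96 wells and the first 34 wells of plate 13, after which the next TC tile with a value is in plate 17. The chromatin came from untreated seedlings of Arabidopsis thaliana (accession Col-0), labelled as 10 days old and raised at 22 °C in liquid culture under a 16 hour photoperiod. Immunoprecipitated (IP) DNA of preparations I and II was hybridised against input DNA of the same preparation, the chromatin before immunoprecipitation, with the dyes exchanged on a further array, which gave 4 arrays. Both arrays of a dye-swap pair hold identical values, so each preparation counts as 1 sample (n = 2), and the labels do not say whether the preparations were separate cultures. Whole seedlings mix many cell types, so a mark carried by fewer cells and less of the mark per cell cannot be told apart.

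H3K56ac sits near the point where DNA enters and leaves the nucleosome, on the globular part of the histone. It is placed on newly made histone H3 in yeast, and in plants it is found mostly near the starts of transcribed genes. Histone acetylation in general is a mark of open, transcribed chromatin, while transposon-rich heterochromatin carries little of it. These statements are background, and neither gene names nor genome positions were used with the tile identifiers here.

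The unit of all values is the deposited log ratio of IP and input, minus its median over all 21707 tiles in that preparation. The sources used here give neither its base nor which channel is the numerator. A difference of 1 is therefore called 1 log unit, and tiles are described as above or below the array median, not as enriched or depleted. Zero is the middle of the array and not a level without the mark.

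The TC tiles of plates 0 to 13 lay above the middle of the array in both preparations. Their median was 0.27 log units in preparation I and 0.23 in preparation II, a mean of 0.25 ± 0.0326 (SD, n = 2). The middle 50% of the tiles ran from −0.19 to 0.79 in preparation I and from −0.16 to 0.68 in preparation II. The highest 5% began at 1.48 in preparation I and 1.38 in preparation II, and the lowest 5% ended at −0.58 and −0.56. The values thus reached further above the median than below it, with a skewness over tiles of 0.439 in preparation I and 0.534 in preparation II. The whole array had a like skewness, at 0.482 in preparation I and 0.470 in preparation II, and the TB tiles had 0.530 and 0.675.

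Tested tile by tile against the array median with limma, adjusted over all 21707 tiles at 0.05, 607 of the 1282 tiles (47.3%) were called above and 218 (17%) below. Over the whole array 33.3% of tiles were called above and 30.9% below. The remaining 457 tiles (35.6%) did not pass, against 35.8% of the whole array. A call with opposite signs in the preparations was found at 1 tile (0.078%), against 0.207% of the whole array. The spread between the 2 preparations was pooled over all tiles, so a call came close to a fixed limit on the mean, which lay at 0.281. These calls depend on the zero point: with values as deposited, 144 tiles were called above 0 and 814 below, which are 15.0% above among calls against 73.6% in the centred values. Over the whole array these shares of calls were 8.57% as deposited and 51.8% in the centred values. With each preparation centred on its mode 93.7% of the calls among these tiles were above, against 75.7% over the whole array.

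At 1 log unit or more above the median the mean of the preparations held 202 tiles (15.8%), against 10.4% of the whole array. In both preparations separately 178 tiles (13.9%) reached that height, against 8.56% of the whole array. Few tiles lay far below the median. The mean was 1 log unit or more below the median at 4 tiles (0.312%), against 3.07% of the whole array, 0.355% of the TB tiles and 0.268% of TA plates 61 and above, and 1 tile reached that depth in both preparations (0.078%), against 1.48%. At 2 log units or more above there were 7 tiles (0.546%), against 0.332% of the whole array.

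**Figure D1:**
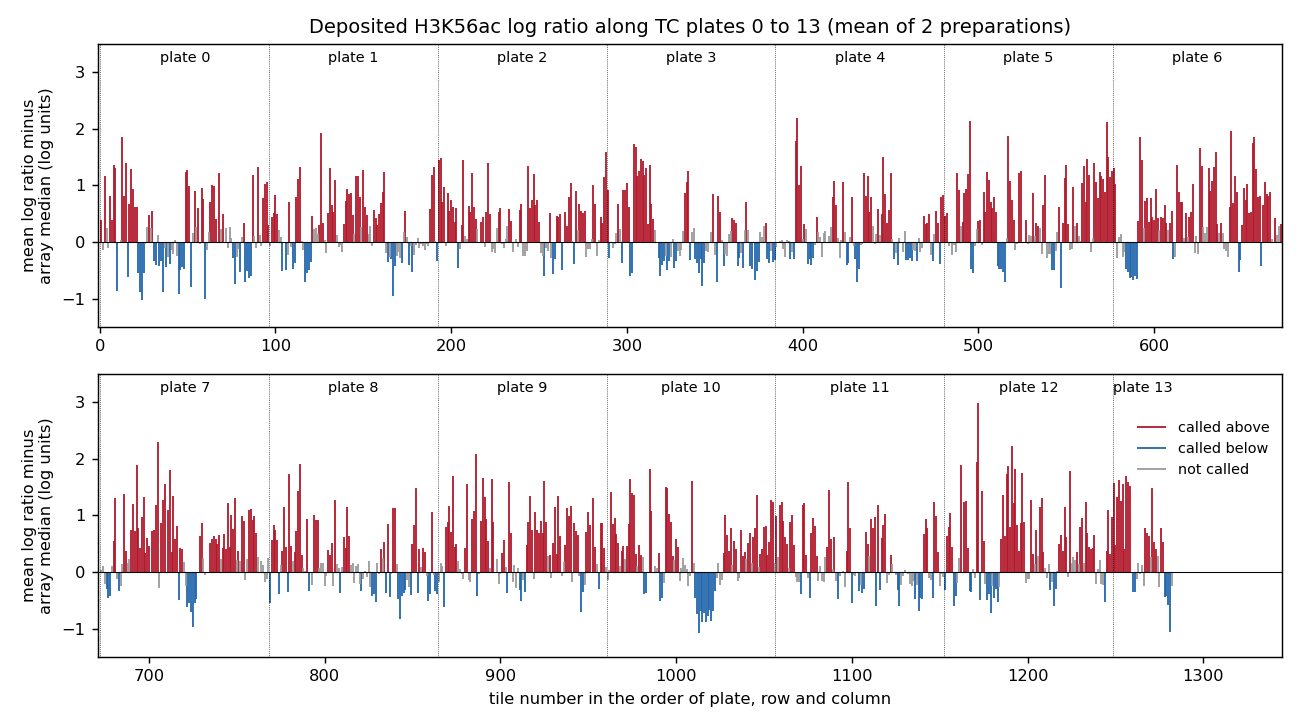
Mean of the 2 preparations at each of the 1282 tiles in the order of plate, row and column, as bars from the array median (y axis, log units; x axis, tile number; dotted lines, plate borders; colours, limma calls). High tiles occur in every plate, and 4 tiles reach 1 log unit below the median.

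Of the individual tiles, TC12B08 stood highest, at 2.88 in preparation I and 3.11 in preparation II, a mean of 2.99 ± 0.164 (SD, n = 2; limma adjusted p = 8.40e-45). It ranked 3 of 21707 on the array. TC07C09 followed with 2.44 in preparation I and 2.14 in preparation II, and TC12D03 with 2.12 and 2.32. These ranked 16 and 21. The next were TC04B01 (2.13 and 2.25), TC05B03 (2.08 and 2.20), TC05H09 (2.34 and 1.91) and TC09B10 (1.92 and 2.25). TC06F08 at 1.98 and 1.93, TC12B07 at 1.72 and 2.16, and TC01C06 at 1.95 and 1.91 completed the 10 highest. Each of these 10 lay above 1.7 in both preparations, and they came from 7 plates. They were chosen as extremes, and their p-values draw mainly on the variance of all tiles.

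The 10 lowest called tiles were much nearer to the median. TC10E05 was lowest, at −1.19 in preparation I and −0.98 in preparation II, a mean of −1.09 ± 0.148 (SD, n = 2; limma adjusted p = 6.10e-13). TC13C09 lay at −1.09 and −1.05, TC00B12 at −0.93 and −1.11, and TC00E12 at −0.85 and −1.17. TC07E05 differed more between preparations, with −0.73 in preparation I and −1.21 in preparation II. The other 5 were TC01F11, TC00D09, TC10E09, TC00B11 and TC00C12, with means from −0.95 to −0.88. Plate 0 held 5 of the 10 lowest tiles.

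The preparations gave similar values across these tiles. Pearson r was 0.925 and Spearman rho 0.912 over the 1282 tiles, against 0.900 and 0.874 over the 9577 TB tiles. Over the whole array they were 0.920 and 0.903. These values describe tiles that share arrays and DNA preparations and carry no p. Between preparations a tile differed with an SD of 0.249 log units, while the tile means varied with an SD of 0.624. The preparations lay on opposite sides of the array median at 180 tiles (14%), against 14.3% of the whole array and 16.3% of the TB tiles. The largest differences were at TC05G07, with 1.502 in preparation I and 0.58 in preparation II, and at TC06D10, with 1.47 and 0.56. Both tiles lie in plates where preparation I was higher as a whole. In plates 5, 6 and 7 the median of the tile-by-tile difference, preparation I minus preparation II, was 0.11 over 288 tiles, against 0.02 over the other 994 tiles. Plates 5, 6 and 7 were grouped after their values were seen, with medians of 0.12, 0.13 and 0.10. In single TB plates this median ran from −0.11 in plate 12 to 0.27 in plate 70. Whether a batch or hybridisation effect moved TC plates 5, 6 and 7 was not tested.

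Plates differed in level by more than the preparations did. The plate medians, as the mean of both preparations, ran from −0.03 in plate 3 to 0.47 in plate 9, with an SD over the 14 plates of 0.170, while the median SD between preparations was 0.0344. In 13 of 14 plates the median was above 0 in both preparations. Plate 3 was the exception, with −0.02 in preparation I and −0.04 in preparation II. Low medians were also found in plate 11 (0.04 in preparation I and 0.06 in preparation II), plate 4 (0.09 and 0.04) and plate 0 (0.09 and 0.11). High medians were found in plate 9 (0.42 and 0.51), plate 6 (0.51 and 0.34), plate 7 (0.47 and 0.33) and the partial plate 13 (0.36 and 0.50). Plate 6 was highest in preparation I and plate 9 in preparation II, so the order at the top is not settled. Between the medians of a plate and the plate before, r was −0.0161 over 13 pairs in TC and 0.177 in TB, given as a description.

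In plate 6, 61.5% of the tiles were called above the array median and 11.5% below. In plate 3, 30.2% were called above and 34.4% below, the highest share below among these plates. Plate 2 had the lowest share called below, at 6.25%. Over the whole array 33.3% of tiles were called above and 30.9% below. Single TB plates ran from 18.8% to 74.0% called above and from 1.04% to 41.7% called below. Tiles at 1 log unit or more in both preparations made up 26.5% of the 34 tiles of plate 13 (9 tiles). They made up 22.9% of plate 5 and 20.8% of plate 12, against 7.29% of plate 11. The share was 8.56% over the whole array and ran from 1.04% to 21.9% in single TB plates. Leaving out each plate in turn kept the share called above in all plates between 46.2% and 48.7%.

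**Figure D2:**
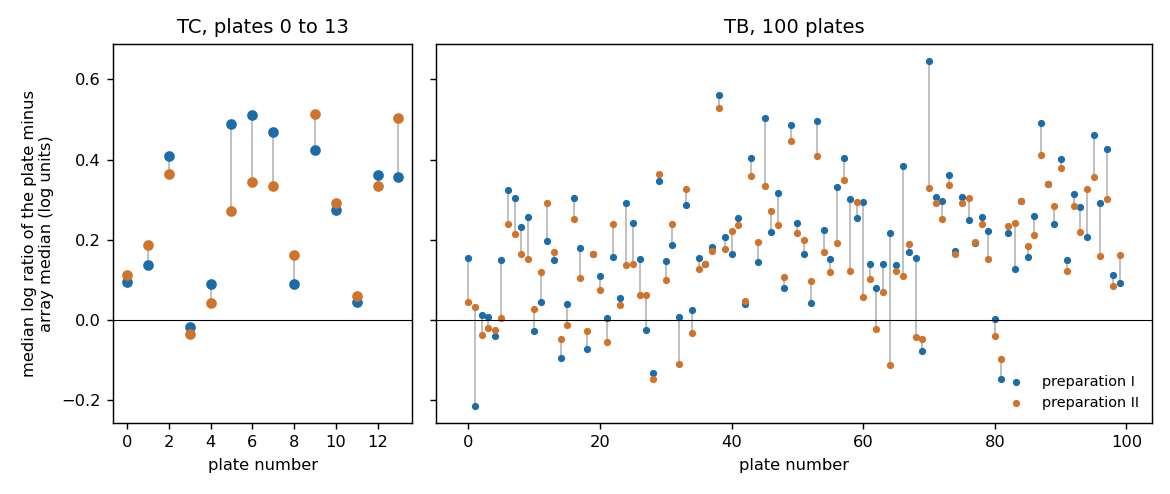
Median log ratio minus the array median (y axis, log units) of each plate (x axis) in preparation I and preparation II, joined by a line, for TC plates 0 to 13 on the left and the 100 TB plates on the right. TC plate medians in the mean of both preparations run from −0.03 to 0.47, inside the range of −0.14 to 0.54 of the TB plates.

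High tiles came mostly alone or in pairs. The 178 tiles at 1 log unit or more in both preparations formed 122 runs of consecutive tiles, of which 80 were single tiles, 33 were pairs, 6 had 3 tiles and 3 had 4 or more. The mean length was 1.46 tiles. Single tiles made up 65.6% of the runs, against 73.6% in TB and 73.9% in TA plates 61 and above. Runs of 3 or more began in plates 3, 5, 6, 10, 12 and 13. Plates 0, 1, 2, 4, 7, 8, 9 and 11 had high tiles, and no run there was longer than 2 tiles.

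The run in plate 3 stood in the plate with the lowest median. TC03B07 to TC03B11 lay at 1.15, 1.57, 1.42, 1.19 and 1.41 in preparation I and at 1.34, 1.38, 1.43, 1.18 and 1.21 in preparation II, so every value of these 5 tiles exceeded 1. In front of them TC03B04 had 1.89 in preparation I and 1.57 in preparation II, TC03B05 had 1.87 and 1.48, and TC03B06 had 1.39 and 0.93. TC03B06 thus missed the limit in preparation II only, and in the mean of both preparations the 8 tiles from TC03B04 to TC03B11 formed 1 run. The run began abruptly: TC03B03, the tile before TC03B04, had −0.42 in preparation I and −0.69 in preparation II. After it TC03B12 was at 0.31 and 0.33, TC03C01 was high again at 1.496 and 1.21, and the values then declined over the following tiles. Called tiles above the median ran without a break from TC03B04 to TC03C03, over 12 tiles. Starting later in the same plate, TC03D12 to TC04A11 formed the longest stretch without a tile at 1 log unit in both preparations, with 60 tiles and a median of −0.16 in preparation I and −0.14 in preparation II.

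The other run of 5 tiles crossed from plate 5 into plate 6. TC05H09 to TC06A01 lay at 2.34, 1.71, 1.05, 1.32 and 1.32 in preparation I and at 1.91, 1.28, 1.26, 1.19 and 1.30 in preparation II. The tile in front, TC05H08, had 0.86 in preparation I and 0.92 in preparation II, and TC05H07 before it had 1.06 and 1.16. After the run TC06A02 had 0.99 and 1.06, and TC06A03 was at −0.26 and −0.30. On that side the change from the run to values below 0 lay between TC06A02 and TC06A03 in both preparations. The stretch of 24 tiles from TC05G02 to TC06A01 was the highest window of that length, with a median of 1.11 in preparation I and 1.05 in preparation II. In it 19 tiles were called above the array median and 0 below by limma, and 13 reached 1 log unit in both preparations.

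A run of 4 tiles and one of 3 lay side by side in plate 13, shortly before the gap in plate numbers. TC13A03 to TC13A06 had 1.33, 1.65, 1.32 and 1.75 in preparation I and 1.33, 1.59, 1.19 and 1.34 in preparation II. TC13A07, at 0.36 and 0.46, separated them from TC13A08 to TC13A10, whose means ran from 1.51 to 1.69. TC13A02 on the other side had 0.36 and 0.58, and TC13A01 had 1.64 and 1.49. Counting called tiles, this belonged to a run of 14 tiles above the median from TC12H09 to TC13A10. The last tile before the gap, TC13C10, was at −0.17 in preparation I and −0.31 in preparation II and did not pass the test (limma adjusted p = 0.0960). TC13C09 beside it, at −1.09 and −1.05, was among the lowest.

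**Figure D3:**
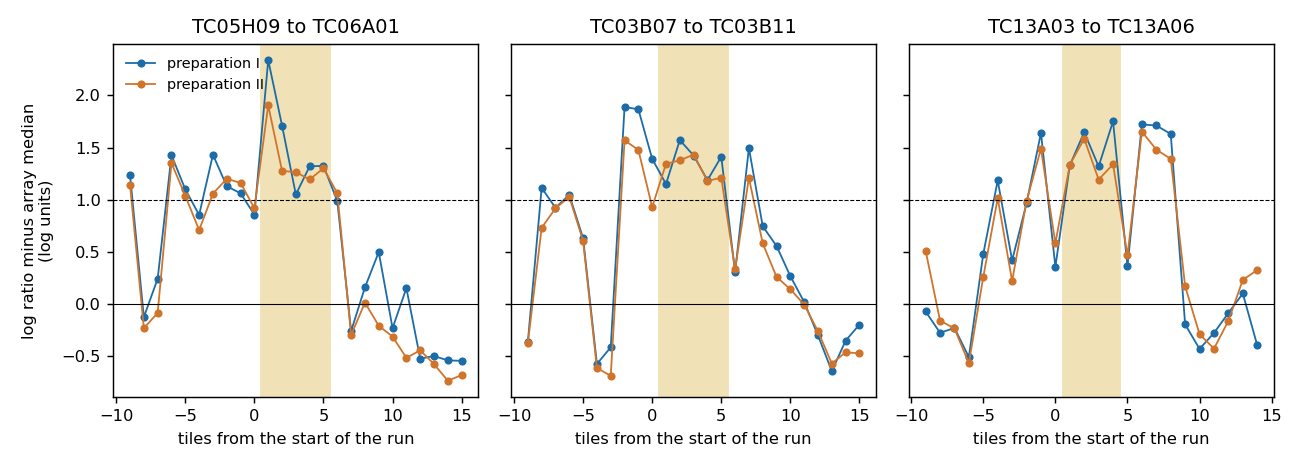
The 3 longest runs of tiles at 1 log unit or more in both preparations (shaded) with up to 10 tiles on either side; y axis, log ratio minus the array median in log units; x axis, tiles from the start of the run; lines, preparation I and preparation II; dashed line, 1 log unit. The preparations follow each other at the edges, with TC03B03 at −0.42 and −0.69 in front of TC03B04 at 1.89 and 1.57.

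An equally long run of called tiles, 14 from TC12C09 to TC12D10, alternated between high and lower tiles. TC12C12 and TC12D01 had 1.55 and 1.86 in preparation I and 1.90 and 1.90 in preparation II. TC12D02 was lower at 0.72 and 0.86, TC12D03 was at 2.12 and 2.32, and TC12D05 had 1.78 and 1.85. TC12D07 was low at 0.10 in preparation I and 0.65 in preparation II, and TC12D09 was high again at 1.61 and 1.88. The tile before it, TC12D06, had 1.04 in preparation I and 0.63 in preparation II, so the lowest tile of that dip was TC12D07 in preparation I and TC12D06 in preparation II.

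Runs of tiles called below the median were shorter than runs called above, with a mean length of 1.91 against 3.15 tiles. Fewer tiles were called below (17%) than above (47.3%). In TB the mean lengths were 1.81 and 2.86 tiles, and in TA plates 61 and above 2.13 and 2.52. The 218 TC tiles called below formed 114 runs, of which 64 were single tiles. The longest had 12 tiles, from TC10E03 to TC10F02, with a median of −0.76 in both preparations and a lowest tile mean of −1.09 at TC10E05. Just in front of it, TC10E01 stood at 1.58 in preparation I and 1.63 in preparation II, and TC10E02 at 0.32 and 0.00. The next longest had 7 tiles, from TC06A08 to TC06B02, with medians of −0.55 and −0.55. The lowest window of 24 tiles, TC00B11 to TC00D10, had a median of −0.36 in preparation I and −0.29 in preparation II, with 12 tiles called below and 2 above.

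Values often changed sharply from one tile to the next. Neighbouring tiles differed by a median of 0.337 log units, and 165 of 1281 pairs (12.9%) differed by 1 or more, against 10.9% of 9576 pairs in TB. The largest step followed the highest tile: TC12B09 was at −0.65 in preparation I and −0.33 in preparation II, next to TC12B08 at 2.88 and 3.11. TC05B03, at 2.08 and 2.20, was followed by TC05B04 at −0.56 and −0.41. TC07C09, at 2.44 and 2.14, was followed by TC07C10 at −0.29 and −0.27. In these 3 pairs the step was over 2.4 log units in each preparation, so both preparations placed it between the same tiles.

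The similarity of neighbours was of short range. Pearson r of the mean was 0.463 between neighbours, 0.219 at 2 tiles, 0.137 at 3 and 0.0374 at 10. To keep the noise of a preparation from entering on both sides, a tile in one preparation was set against its neighbour in the other. That gave 0.438 between neighbours, 0.208 at 2 tiles, 0.130 at 3 and 0.0350 at 10. TB tiles had 0.431, 0.188, 0.115 and 0.0483 at the same distances. The correlation in TC was 0.468 within rows of the plate (1175 pairs), 0.421 across a change of row (93 pairs) and 0.493 across a change of plate (13 pairs). The part of DNA fragments long enough to cover both tiles was not tested.

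A preparation that was not used to pick tiles gave a further reading of the high tiles. Of the 218 tiles at 1 log unit or more in preparation I, 178 (81.7%) were also at 1 or more in preparation II, where their median was 1.21. Among TB tiles the share was 73.3% of 1426, with a median of 1.21. Picked in preparation II and read in preparation I, the shares were 90.4% of 197 TC tiles and 85.4% of 1224 TB tiles. Over the whole array 1858 tiles were at 1 or more in both, out of 2465 in preparation I and 2168 in preparation II. The SD over TC tiles was 0.653 in preparation I and 0.619 in preparation II. There were 12 TC runs of 3 or more tiles in preparation I. In preparation II, 11 of them had a mean of 1 or more and 7 kept every tile at 1 or more. Of 88 such TB runs, 74 and 30 did so. Picked in preparation II, 11 and 8 of 12 TC runs did so in preparation I, against 67 and 42 of 69 TB runs. Around the TC tiles picked in preparation I, preparation II had a median of 0.60 at the tile before and 0.66 at the tile after. At 2 tiles it was 0.42 and 0.41, and at 6 tiles 0.33 and 0.37. The same medians in TB were 0.62 and 0.60 next to the tile, 0.30 and 0.31 at 2 tiles, and 0.24 and 0.25 at 6 tiles.

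**Figure D4:**
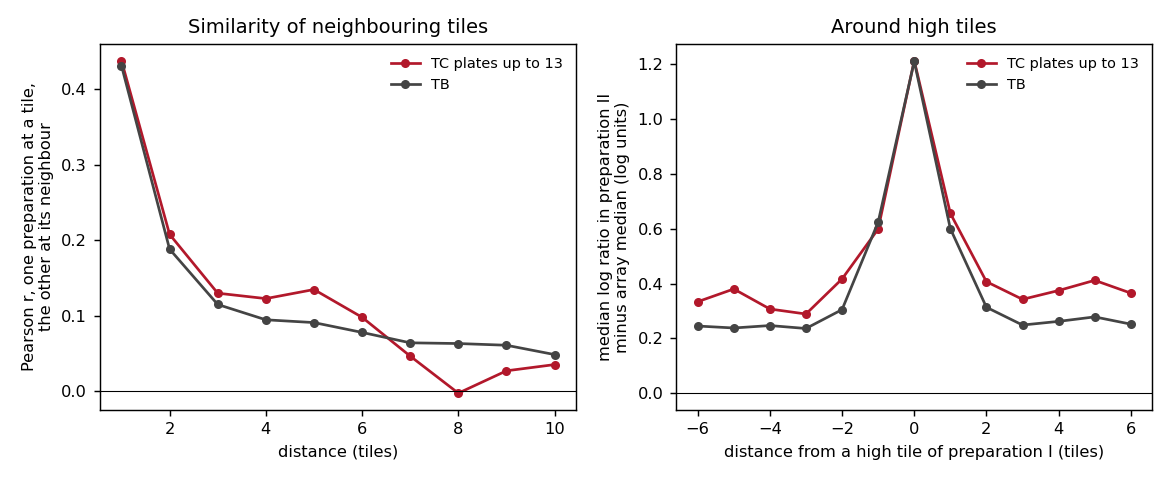
Left, Pearson r (y axis) of tiles at distances of 1 to 10 tiles (x axis), 1 preparation at a tile and the other at its neighbour. Right, median log ratio in preparation II (y axis, log units above the array median) around tiles picked as high in preparation I (x axis, distance in tiles); red, TC plates up to 13, and grey, TB. Both series drop from 1.21 at the tile to between 0.60 and 0.66 at its neighbours.

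Set against the TB tiles, a series of 100 plates of which 81 had medians above 0 in both preparations, the TC tiles of plates 0 to 13 had a slightly higher median. It was 0.27 in TC and 0.20 in TB in preparation I, and 0.23 in TC and 0.16 in TB in preparation II. The difference, TC minus TB, was 0.07 ± 0.00442 log units (SD, n = 2 preparations). Both preparations gave the same direction, and the exact sign-flip permutation test (two-sided) gave p = 0.5, the smallest that 2 preparations allow. The lower quartile differed by −0.02 in preparation I and 0.01 in preparation II, so its sign turned. The upper quartile was 0.79 in TC and 0.69 in TB in preparation I, and 0.68 in TC and 0.62 in TB in preparation II. The 95th percentile was 1.48 in TC and 1.43 in TB in preparation I, and 1.38 in both series in preparation II.

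The size of that difference was within the variation along TB itself. TB was taken in 7 fixed blocks of 14 consecutive plates, from plate 0 to plate 97. Their medians ran from 0.10 to 0.29 log units, on both sides of the 0.25 of the TC tiles. The share called above was 47.3% in TC and ran from 35.4% to 50.4% over the TB blocks, and the share called below was 17% in TC and ran from 10.9% to 23.5%. The share at 1 log unit or more in both preparations was 13.9% in TC, just above the 8.13% to 13.7% of these blocks. TB plates 98 and 99 lay outside the blocks and had 18.8% and 11.5%. Other block borders were not tried, so the highest block value depends on this 1 cut. No test places TC outside TB. Per 1000 tiles there were 95.2 runs of such high tiles in TC and 81.5 in TB, and 7.02 and 4.59 runs of 3 tiles or more. The longest run had 5 tiles in both series, and 7 in TA plates 61 and above. The mean of the preparations gave runs of up to 8 tiles in TC, 5 in TB and 7 in those TA plates. Runs of called tiles reached further in TB, to 30 tiles above and 22 below, against 14 and 12 in TC, in a series with 9577 tiles against 1282.

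The contrast with the other TC plates was large. TC plates 17 and above (1132 tiles) had a median of −0.70 in preparation I and −0.77 in preparation II. TC plates up to 13 minus these gave a difference of 0.99 ± 0.0189 log units (SD, n = 2; exact sign-flip permutation p = 0.5, the smallest possible). Only 1.68% of the tiles of plates 17 and above were called above the array median. The first 12 tiles after the gap, TC17D01 to TC17D12, were all called below by limma, with means from −0.65 to −0.31. TA plates 61 and above (3732 tiles) lay between, with a median of −0.01 in both preparations and a difference, TC up to 13 minus TA, of 0.26 ± 0.0350 (SD, n = 2; exact sign-flip permutation p = 0.5). In TA 30.8% of tiles were called above and 26.2% below.

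**Figure D5:**
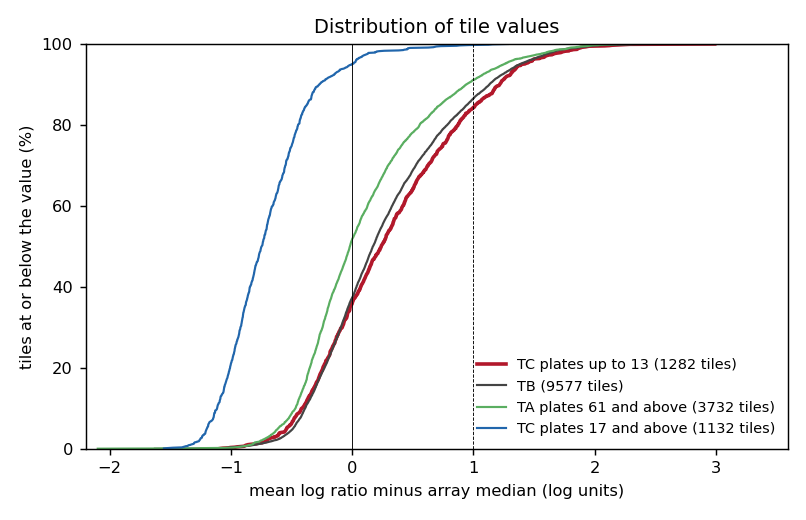
Share of tiles (y axis, percent) at or below each mean log ratio minus the array median (x axis, log units) for TC plates up to 13, TB, TA plates 61 and above and TC plates 17 and above; solid and dashed vertical lines, 0 and 1 log unit. The curves of TC plates up to 13 and TB lie close to each other, with medians of the tile means of 0.24 and 0.17. TC plates 17 and above have a median of −0.75.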

How the data were processed

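The table used holds the authors' deposited processed values, log ratios of the IP and input channels with 1 column per array. The sources used here give no log base, direction, normalization or software, and column medians as deposited were −0.737 in preparation I and −0.925 in preparation II. Columns of a dye-swap pair were identical at 21707 tiles, so neither a dye effect nor the spread between arrays could be computed. Columns were averaged per preparation and centred on the median over all tiles. The test of a tile against 0 used limma (version 3.58.1, under R 4.3.3; lmFit, eBayes, two-sided, 1 residual and 134 prior degrees of freedom, Benjamini-Hochberg over all tiles). The fit was also run on simulated independent tiles with variances drawn from its own fitted prior. That run does not cover tiles that vary together, as neighbours do here. Other values were computed with Python 3.11.15 and numpy 2.4.6. The number of arrays limits the precision, p-values cover these 2 preparations, and tiles are not independent. Runs are consecutive measured tiles in the order of plate, row and column. The tiles and the lists were chosen with earlier results of these data known. Tiles named by rule were the 10 highest and 10 lowest called, the 3 longest runs with 2 tiles on either side, the 2 largest differences between preparations, the first and last tile and the 3 largest steps. Other tiles named were chosen after their values were seen. Alternatives covered the zero point, scaling, the variance model, run limits and left-out preparations and plates.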

Additional observations from a re-analysis of the deposited data

How the results depend on the processing

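The level, the calls and the counts of high tiles rest on the zero point. With values as deposited the median became −0.58 and the plate medians ran from −0.86 to −0.36. By limma 144 tiles (11.2%) were called above and 814 (63.5%) below, against 7.07% and 75.4% of the whole array. At 1 or more there were 18 tiles and at −1 or less 314. High tiles formed 8 runs, each of 1 tile. TC00A01, TC03B12, TC13A02 and TC13A07 then lay below 0, at −0.44, −0.51, −0.36 and −0.42. Centred on the mode, the median was 0.50 and the plate medians ran from 0.23 to 0.72. Limma then called 53 tiles (4.13%) below, against 14.8% of the whole array. In this setting 320 tiles lay at 1 or more, 0 at −1 or less, and the longest run had 10 tiles. Counts at 1 or more and −1 or less over the whole array are not given for either setting. Each of these settings moves a preparation by 1 constant, and the constant differs between the preparations. Limma's treat, asking for more than 1.5-fold if the base is 2, called 241 above (18.8%, against 12.7% of the whole array) and 7 below (0.546%, against 5.11%). Scaling to equal MAD, robust eBayes and a trended prior left the counts of calls within 1.5 times. Without 1 preparation the median ran from 0.23 to 0.27, the tiles at −1 or less from 4 to 7, the lowest plate median from −0.04 to −0.02, the highest from 0.511 to 0.514, the difference from TB from 0.0656 to 0.0719, the longest run from 6 to 8 tiles, the number of runs from 134 to 144, the tiles at 1 or more from 197 to 218 and the neighbour correlation from 0.445 to 0.462. At 0.8 log units the longest run had 10 tiles. At 1.2 there were 81 runs, the longest of 3 tiles. In the mean of both the longest had 8. The difference from TB was 0.0891 without plate 3 and 0.0641 without plate 13. Chosen after seeing the data, the difference was −0.0378 from the highest TB block of 14 plates and 0.152 from the lowest. Between the preparations Spearman rho was 0.912, against a Pearson r of 0.925. The neighbour correlation was 0.445 without plate 3, 0.448 after plate medians were taken off and 0.438 across preparations. Limma counts without 1 preparation were not run, since no residual degrees of freedom remain. No paired analysis was possible because the study has 1 group.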

Other observations

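Median levels differed among rows and columns of the plate, and an effect of the place of a well was not tested. Over TC plates 0 to 13 the row medians, as means of both preparations, ran from 0.14 in row D to 0.38 in row B. The column medians ran from 0.10 in column 11 to 0.37 in column 10. In columns 11 and 12 preparation I had medians of 0.04 and 0.05, and preparation II had 0.17 and 0.17. In column 1 the order was the other way, with 0.24 in preparation I and 0.06 in preparation II. Steps of 1 log unit or more between neighbouring tiles went up in 88 pairs and down in 77 in the mean of the preparations, in 87 and 86 pairs in preparation I, and in 87 and 74 pairs in preparation II.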
